A study of Homo sapiens with 14 samples.

Results

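Collagen genes are the protein-coding genes whose symbol has the form COL, a number, A and a number. The count table held 44 of them among 61533 genes, and 31 of the 44 had enough reads to be tested, among 16056 genes tested. They were measured by sequencing polyA RNA of SH-EP, a line long established from a human neuroblastoma. The labels name an n-Myc SPARK-ON line, with 3 libraries in lenalidomide and 3 in the solvent DMSO, and an n-Myc control line, which lacks SPARK-ON, with 2 libraries in lenalidomide and 3 in DMSO. Lenalidomide is a small molecule that binds the ubiquitin ligase adaptor cereblon. By the series text, it serves here to bring about phase separation of n-Myc, that is its gathering into droplets in the cell, at an unaltered amount of n-Myc protein, and the control line shows what lenalidomide does without SPARK-ON. All groups share the SH-EP background and the n-Myc label. The SPARK-ON line was a single clone by the same text, so that what belongs to the construct and what belongs to the clone cannot be told apart, and each line contrast below sets 1 line against 1 other line. Dose and time were not given in the labels used here. Replicates carry numbers only, so p-values measure the spread between these libraries, which may be technical.

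Collagens are extracellular proteins wound from 3 chains into a triple helix. Fibrillar collagens build the cables of connective tissue, and FACIT collagens (fibril-associated collagens with interrupted triple helices) decorate the surface of those cables. Type IV collagen forms the sheet of basement membranes, type VI forms beaded filaments around cells, and transmembrane collagens stay anchored in the plasma membrane. Each chain is the product of a gene of its own, and several types are assembled from chains of different genes. In neuroblastoma, cells of the mesenchymal kind, to which SH-EP is assigned, are known for making more extracellular matrix than adrenergic cells do.

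Library totals ran from 6614671 counts (SPARK-ON lenalidomide replicate 3) to 21511684 counts (control DMSO replicate 3), and a count of 3 corresponded to 0.143 to 0.441 CPM, the unit used here for counts scaled to the size of a library. MYCN, the gene of n-Myc, stood at a mean of 2423 CPM in control DMSO libraries and 2275 CPM in SPARK-ON DMSO libraries, and its line difference did not pass the test (log2 -0.09, adjusted p = 0.403, edgeR). All 8 of the listed mesenchymal markers were detected above the filter. Their summed level was 1490 to 1691 CPM in SPARK-ON libraries and 2765 to 2890 CPM in control libraries, with VIM and CD44 lower and FN1 higher in SPARK-ON cells by the test. In each treatment 5 of the 8 were not called. The called share was 37.5%, beside 41.6% of all genes in DMSO and 39.4% with lenalidomide. Of 8 adrenergic markers, 2 passed the filter, and PHOX2A and ISL1 were at 0 counts in every library. Summed over each list, adrenergic markers came to 4.99 to 8.27 CPM in SPARK-ON and 6.44 to 8.72 CPM in control libraries. HAND2 was called higher in SPARK-ON cells in both treatments, at 14, 17 and 26 counts in SPARK-ON and 1, 2 and 3 in control DMSO libraries. With lenalidomide its libraries overlapped between the lines. GATA3, which makes up most of the sum, was not called. With lenalidomide, though, GATA3 was lower in every SPARK-ON library than in control libraries, at an unadjusted edgeR p under 0.05. Endothelial markers came to 2.50 to 6.72 and 1.12 to 2.73 CPM, with 3 of 4 above the filter, of which VWF was called higher in SPARK-ON cells in DMSO and KDR with lenalidomide. HAND2 and VWF passed the filter only through SPARK-ON libraries. None of the 5 blood, 4 epithelial and 2 hepatocyte markers passed it, and their sums stayed at or under 0.189, 2.06 and 0.611 CPM. The part of these marker levels in the collagen values was not tested.

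Collagen transcripts took 0.186% to 0.254% of all counts in a library. Levels of different genes are compared here only as CPM per kilobase of merged exon (GENCODE 29). Merged exon joins every annotated exon of a gene, for example 19293 bases for COL4A2 and 5343 for COL6A1. It can be longer than the transcripts these cells make, so ranks and class shares on this scale depend on the annotation. On that scale COL6A1 led in SPARK-ON cells (47.7 in DMSO and 53.9 with lenalidomide), and COL5A1 (24.5 and 29), COL6A2 (23.7 and 26.9) and COL18A1 (23.6 and 25.3) came next, close to each other. In control cells COL6A1 (32.4 and 33.1), COL11A1 (29.3 and 43.5) and COL12A1 (29.9 and 33.8) led, and stood close to each other in DMSO. COL1A1 and COL3A1, the leading collagens of fibroblasts, were at 0.229 to 0.387 CPM per kb and at 0 counts in all 11 libraries. Summed by class, beaded filament chains made up 34.8% to 35.5% of the collagen level per kb in SPARK-ON libraries and 19.0% to 24.0% in control libraries. FACIT chains made up 10.6% to 12% and 21.8% to 24.4%. Fibrillar chains made up 28.4% to 30.6% and 33.0% to 38.5%, and basement membrane and multiplexin chains 21.2% to 23.6% and 16.8% to 19.4%. For each of these 4 classes the shares did not overlap between lines. The summed levels behind the shares were also apart for beaded filament and FACIT chains. They overlapped for fibrillar chains (59.86 to 71.28 CPM per kb in SPARK-ON and 70.33 to 105.8 in control libraries). They overlapped too for basement membrane and multiplexin chains (46.15 to 50.07 and 41.36 to 49.08). The sums were not tested. In such bulk RNA, fewer cells making a transcript and less transcript per cell cannot be told apart.

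**Figure D1:**
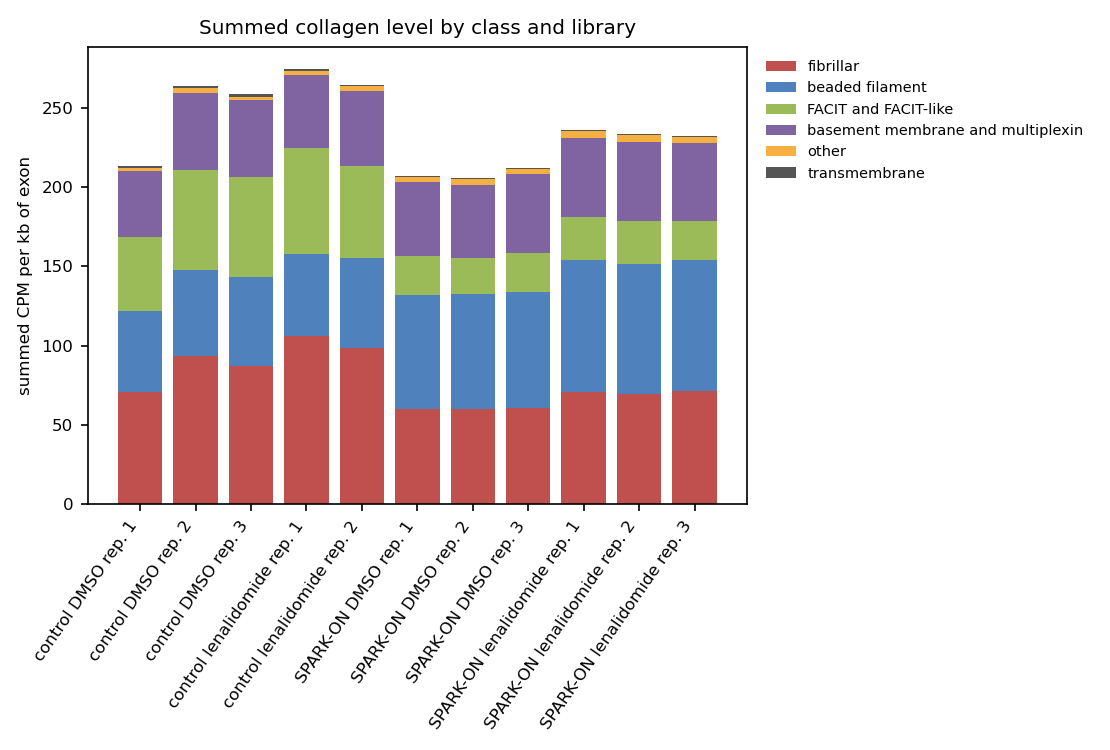
Summed collagen level in each of the 11 libraries, as CPM per kb of exon, stacked by class. The blue beaded filament share is larger and the green FACIT share smaller in the 6 SPARK-ON bars (34.8% to 35.5% and 10.6% to 12% of the bar) than in the 5 control bars (19.0% to 24.0% and 21.8% to 24.4%).

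SPARK-ON and control cells differed in many collagen genes in both treatments. In DMSO, 11 of the 31 tested members were higher and 9 lower in SPARK-ON cells by edgeR's quasi-likelihood test at an adjusted p under 0.05. Among all 16056 genes, 21.1% were called higher and 20.5% lower, 41.6% in all, against 64.5% of the members. With lenalidomide, 11 members were higher and 10 lower, which is 67.7%, against 19.7% of all genes called in each direction and 39.4% in all. Among the tested members, COL8A2, COL19A1 and COL24A1 reached the expression filter only through SPARK-ON libraries, which fixed their direction. Of the 28 others, 9 were higher and 9 lower in DMSO, and 8 higher and 10 lower with lenalidomide. The higher genes COL4A6, COL6A1, COL6A3, COL7A1, COL9A2, COL16A1 and COL27A1 were called in both treatments. COL8A2 and COL24A1 were too, but the filter fixed their direction. The 9 members lower in DMSO, COL1A2, COL2A1, COL5A2, COL8A1, COL9A3, COL11A1, COL12A1, COL14A1 and COL17A1, were also lower with lenalidomide. COL4A5 was called lower with lenalidomide alone. Groups did not overlap for 15 members higher and 9 lower in DMSO (26.2% and 24.6% of all genes) and for 14 higher and 11 lower with lenalidomide (30.4% and 29.3%). In both treatments the higher ones include COL8A2, COL19A1 and COL24A1, whose direction the filter fixed. The median log2 difference over the members was 0.16 in DMSO and 0.20 with lenalidomide, beside 0.01 and 0.02 over all genes. Of the 31 members, 16 were positive and 15 negative in DMSO, and 17 and 14 with lenalidomide. These medians and counts also include COL8A2, COL19A1 and COL24A1, so they carry no weight as to a direction of the members.

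**Figure D2:**
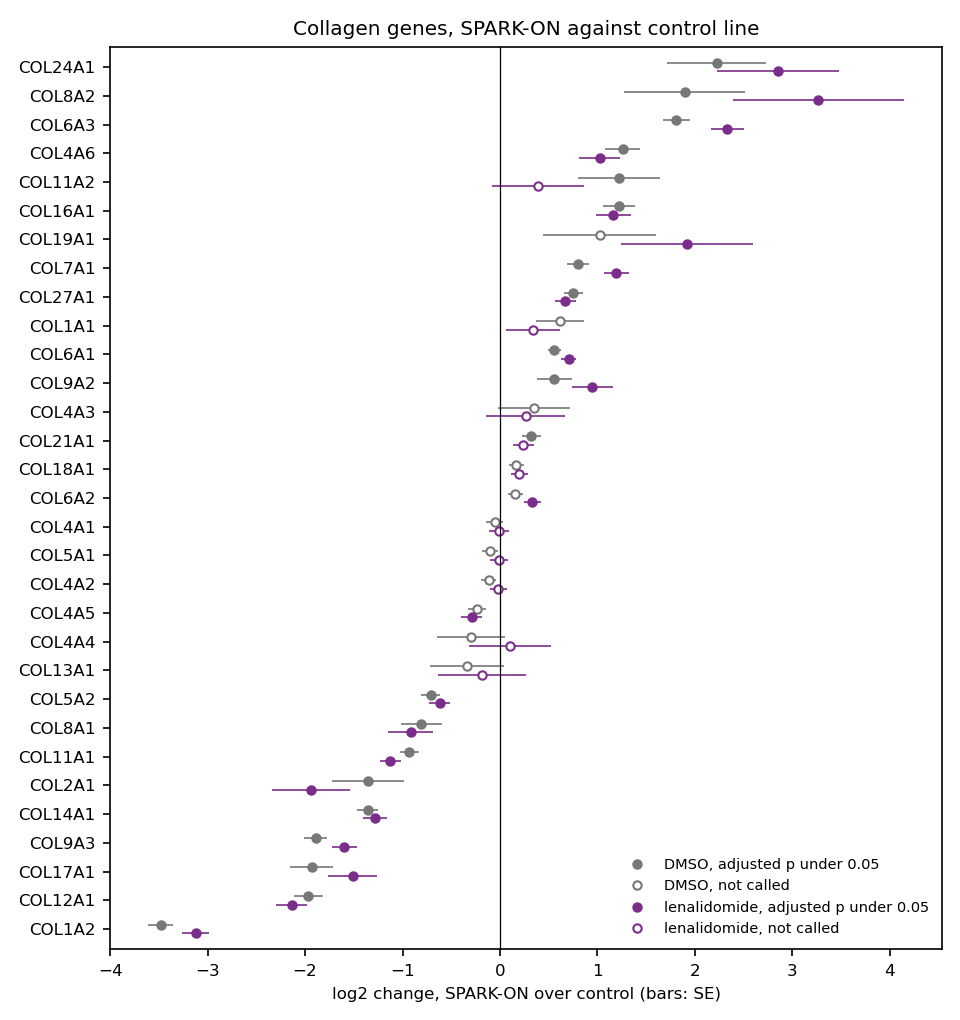
Log2 change of SPARK-ON over control cells for the 31 tested collagen genes, in DMSO (grey) and with lenalidomide (purple); bars are the standard error and filled points have an adjusted p under 0.05 by edgeR. Points run from -3.48 for COL1A2 to 3.27 for COL8A2, and 9 genes are filled to the right and 9 to the left in both colours. Of those to the right, COL8A2 and COL24A1 reached the expression filter only through SPARK-ON libraries.

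**Figure D3:**
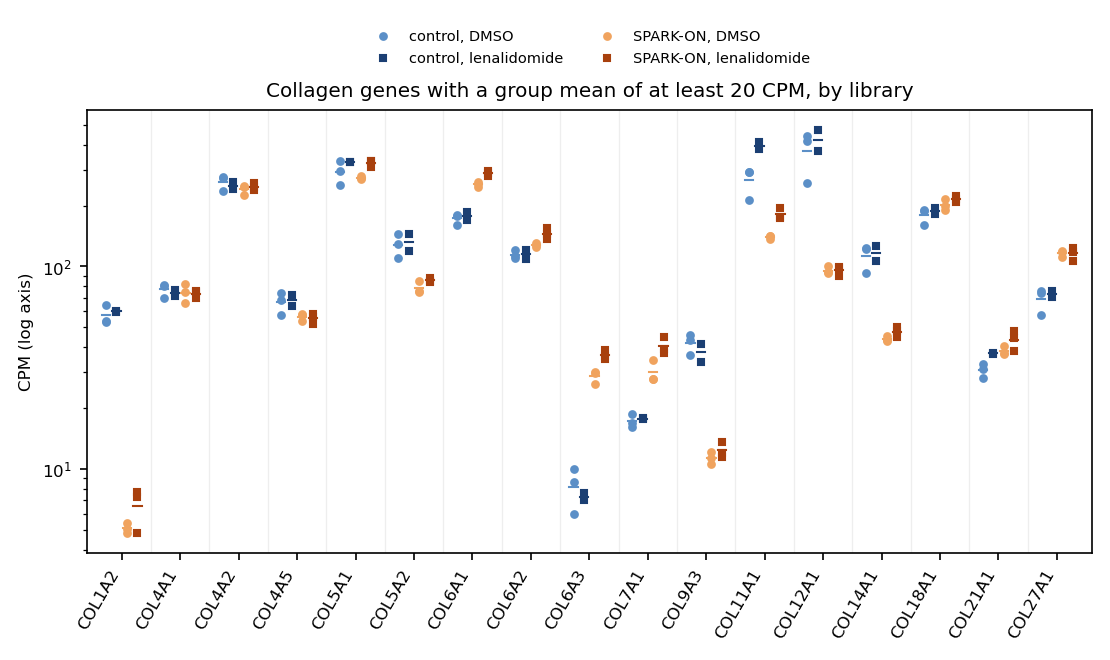
CPM in each library, on a log axis, of the 17 collagen genes with a mean of at least 20 CPM in some group; points are libraries and short lines are group means. COL1A2, COL9A3, COL11A1, COL12A1 and COL14A1 lie lower and COL6A1, COL6A3, COL7A1 and COL27A1 higher in SPARK-ON (orange and brown) than in control (blue) libraries, with no overlap between lines.

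The fibrillar class held the largest line difference in DMSO. COL1A2 (GRCh38 chr7:94394561-94431232, plus strand) encodes the second chain of type I collagen, the main collagen of bone, skin and tendon. It stood at 53.5, 64.6 and 54 CPM in control cells in DMSO and 60.6 and 59.6 CPM in control cells with lenalidomide, against 4.85, 5.07 and 5.41 CPM in SPARK-ON cells in DMSO and 7.26, 7.7 and 4.85 CPM with lenalidomide, in replicate order here and below. The lines did not overlap, and control libraries were all far above SPARK-ON libraries. The log2 difference of SPARK-ON from control was -3.48 (SE 0.13, adjusted p = 3.47e-13) in DMSO and -3.12 (SE 0.14, adjusted p = 4.89e-12) with lenalidomide, that is 11.2-fold and 8.71-fold lower. A gene model, AC002074.1, overlaps COL1A2 on the opposite strand, and without a stated strand setting its reads cannot be told apart from those of COL1A2. COL1A1, which encodes the partner chain, stood at 2.17, 1.9 and 2.67 CPM in control cells in DMSO and 2.15 and 3.83 CPM in control cells with lenalidomide, against 3.3, 3.69 and 3.42 CPM in SPARK-ON cells in DMSO and 3.75, 3.97 and 3.67 CPM with lenalidomide. It was low in both lines, and neither contrast passed the test (0.62, adjusted p = 0.0536, and 0.34, adjusted p = 0.355), although in DMSO the lines did not overlap and 5 of 19 alternative settings called it higher.

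COL11A1 (GRCh38 chr1:102876467-103108872, minus strand), whose chain nucleates thin fibrils in cartilage, was the highest per kb of the fibrillar members that were lower in SPARK-ON cells. Its level was 213, 293 and 293 CPM in control cells in DMSO and 412 and 378 CPM in control cells with lenalidomide, against 141, 137 and 141 CPM in SPARK-ON cells in DMSO and 173, 176 and 195 CPM with lenalidomide. All SPARK-ON libraries were below all control libraries, and control DMSO replicate 1 was the lowest control library. The log2 differences were -0.93 (SE 0.10, adjusted p = 5.41e-07) in DMSO and -1.13 (SE 0.11, adjusted p = 1.87e-07) with lenalidomide. COL5A2, a chain of type V collagen, which starts fibrils and sets their width, stood at 110, 145 and 129 CPM in control cells in DMSO and 145 and 119 CPM in control cells with lenalidomide, against 75.5, 74.7 and 84.5 CPM in SPARK-ON cells in DMSO and 87.7, 85.2 and 84.2 CPM with lenalidomide. It too was lower in SPARK-ON cells without overlap, at a log2 difference of -0.71 (SE 0.10, adjusted p = 1.09e-05) in DMSO and -0.62 (SE 0.11, adjusted p = 1.79e-04) with lenalidomide. COL5A1, the major type V chain, was among the highest members per kb, at 252, 333 and 297 CPM in control cells in DMSO and 327 and 327 CPM in control cells with lenalidomide, against 273, 279 and 270 CPM in SPARK-ON cells in DMSO and 331, 311 and 332 CPM with lenalidomide. Its lines overlapped in both treatments, and its log2 difference was -0.10 (95% interval -0.27 to 0.07) in DMSO and -0.01 (-0.21 to 0.18) with lenalidomide. Without control DMSO replicate 1, its lowest library in that group, the DMSO difference of COL5A1 passed the test at -0.21.

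COL27A1, which encodes a cartilage-type fibrillar chain, was higher in SPARK-ON cells. It stood at 57.4, 75.6 and 73.6 CPM in control cells in DMSO and 75.5 and 70.6 CPM in control cells with lenalidomide, against 119, 118 and 112 CPM in SPARK-ON cells in DMSO and 118, 124 and 106 CPM with lenalidomide. The lines were apart in every library, and the log2 differences were 0.75 (SE 0.10, adjusted p = 4.55e-06) in DMSO and 0.67 (SE 0.11, adjusted p = 8.58e-05) with lenalidomide. COL24A1, a related minor chain, was scarce, at 0.0542, 0.832 and 0.62 CPM in control cells in DMSO and 0.568 and 0.213 CPM in control cells with lenalidomide, against 2.04, 3.3 and 1.79 CPM in SPARK-ON cells in DMSO and 2.9, 2.99 and 2.35 CPM with lenalidomide. All SPARK-ON libraries were higher, with summed counts of 119 against 28 in DMSO (ratio of CPM 4.65, exact 95% interval 3.06 to 7.29, counting error only) and 113 against 13 with lenalidomide (7.59, 4.26 to 14.7). COL24A1 reached the filter only through SPARK-ON libraries, so its call carries no weight as to direction. The test gave 2.22 (SE 0.51, adjusted p = 0.00174) in DMSO and 2.85 (SE 0.63, adjusted p = 0.00137) with lenalidomide. COL2A1, the collagen of cartilage, was scarce too, at 2.22, 1.9 and 2.05 CPM in control cells in DMSO and 3.47 and 3.19 CPM in control cells with lenalidomide, against 0.36, 1.25 and 0.817 CPM in SPARK-ON cells in DMSO and 0.968, 0.916 and 0.588 CPM with lenalidomide. The lines did not overlap, and it was lower in SPARK-ON cells, at a log2 difference of -1.35 (SE 0.37, adjusted p = 0.00687) in DMSO and -1.94 (SE 0.40, adjusted p = 8.81e-04) with lenalidomide. COL11A2, a partner of COL11A1, stood at 0.813, 0.475 and 0.62 CPM in control cells in DMSO and 1.45 and 0.691 CPM in control cells with lenalidomide, against 1.8, 1.71 and 1.02 CPM in SPARK-ON cells in DMSO and 1.33, 1.59 and 1.18 CPM with lenalidomide. It was called higher in DMSO, 1.22 (SE 0.42, adjusted p = 0.0275), a call lost with line weights in voom and without SPARK-ON DMSO replicate 1 or 2 or control DMSO replicate 2 or 3, and not with lenalidomide, 0.39 (SE 0.47, adjusted p = 0.547), where the libraries overlapped.

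Among the FACIT collagens, the 3 largest differences in DMSO were all towards lower levels in SPARK-ON cells. COL12A1 (GRCh38 chr6:75084326-75206051, minus strand), whose product links fibrils to other matrix, stood at 259, 443 and 417 CPM in control cells in DMSO and 472 and 372 CPM in control cells with lenalidomide, against 100, 93.7 and 92.4 CPM in SPARK-ON cells in DMSO and 98.1, 99.6 and 89.8 CPM with lenalidomide. Control libraries spread from 259 to 472 CPM, control DMSO replicate 1 being the lowest, and none came near the SPARK-ON libraries. The log2 difference was -1.97 (SE 0.15, adjusted p = 3.91e-09) in DMSO and -2.14 (SE 0.16, adjusted p = 4.78e-09) with lenalidomide, and over 19 alternative settings it ran from -2.18 to -1.83 in DMSO. COL14A1, which encodes a related fibril-surface collagen, stood at 92.6, 123 and 122 CPM in control cells in DMSO and 126 and 106 CPM in control cells with lenalidomide, against 45.5, 43.5 and 42.8 CPM in SPARK-ON cells in DMSO and 50.2, 44.7 and 48 CPM with lenalidomide. Again the lines were separate and control DMSO replicate 1 was the lowest control library, with log2 differences of -1.36 (SE 0.11, adjusted p = 7.63e-09) in DMSO and -1.28 (SE 0.12, adjusted p = 7.88e-08) with lenalidomide. COL9A3, a chain of cartilage type IX collagen, stood at 46.1, 36.6 and 43.4 CPM in control cells in DMSO and 33.7 and 41.6 CPM in control cells with lenalidomide, against 10.6, 11.3 and 12.1 CPM in SPARK-ON cells in DMSO and 13.6, 12 and 11.5 CPM with lenalidomide. No SPARK-ON library reached any control library, with log2 differences of -1.89 (SE 0.12, adjusted p = 4.77e-10) in DMSO and -1.60 (SE 0.13, adjusted p = 2.64e-08) with lenalidomide. The gene TCFL5 overlaps COL9A3 on the opposite strand, so that reads of the 2 genes cannot be told apart without a strand setting.

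Other FACIT members were higher in SPARK-ON cells. COL16A1, found at cell surfaces and thin fibrils, stood at 7.1, 5.76 and 7.87 CPM in control cells in DMSO and 8.59 and 8.45 CPM in control cells with lenalidomide, against 14.9, 14.4 and 19.1 CPM in SPARK-ON cells in DMSO and 18.9, 22 and 15.4 CPM with lenalidomide, with no overlap between lines and log2 differences of 1.22 (SE 0.16, adjusted p = 5.47e-06) in DMSO and 1.16 (SE 0.18, adjusted p = 4.91e-05) with lenalidomide. COL9A2, the partner chain of COL9A3, stood at 5.64, 3.86 and 5.77 CPM in control cells in DMSO and 5.81 and 4.52 CPM in control cells with lenalidomide, against 7.97, 6.26 and 8.27 CPM in SPARK-ON cells in DMSO and 10.3, 9.59 and 9.84 CPM with lenalidomide. Lines did not overlap, and it was higher where COL9A3 was lower, at a log2 difference of 0.56 (SE 0.18, adjusted p = 0.0193) in DMSO and 0.95 (SE 0.21, adjusted p = 0.00133) with lenalidomide, though the call in DMSO was lost on leaving out SPARK-ON DMSO replicate 1 or 3 or control DMSO replicate 2. COL21A1, expressed in vessel walls, stood at 28.1, 33 and 31.2 CPM in control cells in DMSO and 37.1 and 37.3 CPM in control cells with lenalidomide, against 40.5, 37 and 37.6 CPM in SPARK-ON cells in DMSO and 44.2, 48.3 and 38.2 CPM with lenalidomide. The lines were apart in both treatments but close: the log2 difference was 0.32 (SE 0.10, adjusted p = 0.0133) in DMSO, lost without SPARK-ON DMSO replicate 1, and 0.24 (SE 0.11, adjusted p = 0.0928) with lenalidomide. COL19A1, a collagen of basement membrane zones, was near the detection floor at 0.38, 0.297 and 0.286 CPM in control cells in DMSO and 0.379 and 0.159 CPM in control cells with lenalidomide, against 1.02, 0.395 and 0.562 CPM in SPARK-ON cells in DMSO and 1.45, 0.672 and 0.881 CPM with lenalidomide, and passed the filter only through SPARK-ON libraries. SPARK-ON libraries were all higher within a treatment, some by little. Summed counts were 34 against 18 in DMSO and 41 against 9 with lenalidomide (ratio of CPM 3.98, exact 95% interval 1.90 to 9.30), and it was called only with lenalidomide, 1.92 (SE 0.68, adjusted p = 0.0331), against 1.03 (SE 0.58, adjusted p = 0.173) in DMSO. That call was lost without SPARK-ON lenalidomide replicate 1 or either control lenalidomide library, and with 3 other settings, DESeq2 among them. The gene LMBRD1 overlaps COL19A1 on the opposite strand.

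Of the 3 expressed chains of type VI collagen, the beaded filament of the space around cells, COL6A1 and COL6A3 were called higher in SPARK-ON cells in both treatments and COL6A2 with lenalidomide. COL6A3 (GRCh38 chr2:237324003-237414375, minus strand) stood at 6.02, 9.98 and 8.59 CPM in control cells in DMSO and 7.58 and 7.02 CPM in control cells with lenalidomide, against 29.8, 30.1 and 26.2 CPM in SPARK-ON cells in DMSO and 38.7, 35.1 and 36.1 CPM with lenalidomide. Every SPARK-ON library was above every control library, and the log2 difference was 1.81 (SE 0.14, adjusted p = 7.29e-09) in DMSO and 2.33 (SE 0.17, adjusted p = 3.24e-09) with lenalidomide, that is 3.5-fold and 5.03-fold. COL6A1, the most abundant collagen transcript per kb in SPARK-ON cells, stood at 161, 178 and 180 CPM in control cells in DMSO and 169 and 185 CPM in control cells with lenalidomide, against 248, 255 and 261 CPM in SPARK-ON cells in DMSO and 291, 295 and 279 CPM with lenalidomide. The lines did not overlap, with log2 differences of 0.56 (SE 0.07, adjusted p = 3.23e-06) in DMSO and 0.70 (SE 0.08, adjusted p = 1.12e-06) with lenalidomide. COL6A2 stood at 113, 110 and 120 CPM in control cells in DMSO and 109 and 121 CPM in control cells with lenalidomide, against 131, 125 and 128 CPM in SPARK-ON cells in DMSO and 145, 136 and 154 CPM with lenalidomide, so that SPARK-ON libraries were again all above control libraries. Its difference missed the threshold in DMSO, 0.16 (SE 0.07, adjusted p = 0.0966), and passed it with lenalidomide, 0.33 (SE 0.08, adjusted p = 0.00424), where leaving out control lenalidomide replicate 1 ended the call.

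The promoters of COL6A3 and COL12A1 are shown because, among members with at least 20 CPM and a RefSeq promoter entry, they had the largest line differences in DMSO in either direction. Each line gives the 250 bases before the annotated start (RefSeq, GRCh38.p14; COL6A3 chr2:237414165-237414414, minus strand; COL12A1 chr6:75206054-75206303, minus strand), with GC boxes (GGGCGG, either strand) and CCAAT boxes (CCAAT, either strand) in capitals.
COL6A3: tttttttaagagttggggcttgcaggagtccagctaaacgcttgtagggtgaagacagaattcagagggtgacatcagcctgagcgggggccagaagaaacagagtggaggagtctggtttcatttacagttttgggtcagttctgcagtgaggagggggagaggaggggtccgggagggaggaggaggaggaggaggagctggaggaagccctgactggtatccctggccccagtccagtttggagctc
COL12A1: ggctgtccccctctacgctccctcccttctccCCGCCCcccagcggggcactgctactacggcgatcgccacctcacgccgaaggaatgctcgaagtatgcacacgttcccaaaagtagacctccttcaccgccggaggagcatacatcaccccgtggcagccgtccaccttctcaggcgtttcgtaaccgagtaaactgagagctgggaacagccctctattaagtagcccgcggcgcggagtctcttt
COL12A1 held 1 GC box in these bases, from -218 to -213, and COL6A3 none. Of 32 members with an entry, none held the E-box CACGTG, the sequence Myc and its partner Max are known to bind, in the window from 250 bases before to 50 after the start, beside 7.43% of 27305 promoters. TATAAA was found in 5 of the 32 (12% of all promoters), CCAAT in 10 or 31.2% (35.7%) and GGGCGG in 18 or 56.2% (44.6%), each searched on both strands. The GENCODE 29 model of COL6A3 begins within the bases shown. These are matches of letters in 1 short window, and no binding was measured.

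Of the basement membrane collagens, the 2 chains of the common type IV network showed no called line difference. COL4A1 stood at 70, 80.5 and 81.4 CPM in control cells in DMSO and 76.7 and 71.2 CPM in control cells with lenalidomide, against 81.9, 66.1 and 75.1 CPM in SPARK-ON cells in DMSO and 70, 76 and 74.5 CPM with lenalidomide. COL4A2 stood at 235, 277 and 272 CPM in control cells in DMSO and 242 and 260 CPM in control cells with lenalidomide, against 225, 248 and 251 CPM in SPARK-ON cells in DMSO and 248, 257 and 239 CPM with lenalidomide. Libraries of the lines overlapped for both genes. The gene models of COL4A1 and COL4A2 overlap each other on opposite strands, and without a strand setting reads from the overlap cannot be told apart, which also touches their ratio below. In DMSO the log2 differences were -0.06 (95% interval -0.24 to 0.13) and -0.12 (-0.27 to 0.05), and with lenalidomide -0.01 (-0.22 to 0.20) and -0.02 (-0.20 to 0.16). Without control DMSO replicate 1, COL4A2 passed the test in DMSO at -0.20. COL4A6 (GRCh38 chrX:108155607-108439497, minus strand), a chain of the network of smooth muscle and some epithelia, stood at 4.99, 7.67 and 4.29 CPM in control cells in DMSO and 6.25 and 8.03 CPM in control cells with lenalidomide, against 14.3, 12.3 and 13.6 CPM in SPARK-ON cells in DMSO and 12.9, 15.2 and 15.9 CPM with lenalidomide. All SPARK-ON libraries were higher, with log2 differences of 1.26 (SE 0.18, adjusted p = 1.85e-05) in DMSO and 1.02 (SE 0.21, adjusted p = 6.46e-04) with lenalidomide. COL4A5 (GRCh38 chrX:108439844-108697545, plus strand), its partner chain and neighbour, stood at 57.8, 73.8 and 68 CPM in control cells in DMSO and 72.3 and 63.9 CPM in control cells with lenalidomide, against 53.7, 57.9 and 58.2 CPM in SPARK-ON cells in DMSO and 56, 58.5 and 51.9 CPM with lenalidomide. It leaned the other way: -0.23 (SE 0.09, adjusted p = 0.0544) in DMSO, where the lines overlapped, and -0.29 (SE 0.11, adjusted p = 0.0363) with lenalidomide, a call lost in 7 of 19 alternatives, among them leaving out SPARK-ON lenalidomide replicate 1 or 3, SPARK-ON DMSO replicate 2 or control lenalidomide replicate 1.

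By their RefSeq starts these type IV genes lie head to head, each pair sharing the stretch between its starts, which is why these sequences are shown. The starts of COL4A1 and COL4A2 are 127 bases apart, those of COL4A5 and COL4A6 380 and those of COL4A3 and COL4A4 419 (RefSeq, GRCh38.p14). The stretch between COL4A1 and COL4A2 is written along COL4A2 (chr13:110307158-110307283, plus strand). For the other pair, the 250 bases before each start are written along their own gene (COL4A5 chrX:108439588-108439837, plus strand; COL4A6 chrX:108439459-108439708, minus strand). The GENCODE 29 model of COL4A6 begins within the bases shown for it. That of COL4A1 begins within the stretch shown, and that of COL4A2 begins before this stretch and overlaps COL4A1. The distances thus hold for the RefSeq starts only. Capitals mark CCAAT and GGGCGG on either strand.
COL4A1 to COL4A2: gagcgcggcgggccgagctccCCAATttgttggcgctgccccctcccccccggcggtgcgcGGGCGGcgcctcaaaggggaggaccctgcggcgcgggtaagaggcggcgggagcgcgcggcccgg
COL4A5: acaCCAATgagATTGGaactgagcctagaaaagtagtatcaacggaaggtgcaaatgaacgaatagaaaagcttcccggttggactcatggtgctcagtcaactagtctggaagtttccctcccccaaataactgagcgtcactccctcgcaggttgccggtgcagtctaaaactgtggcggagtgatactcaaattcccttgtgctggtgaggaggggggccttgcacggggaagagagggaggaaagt
COL4A6: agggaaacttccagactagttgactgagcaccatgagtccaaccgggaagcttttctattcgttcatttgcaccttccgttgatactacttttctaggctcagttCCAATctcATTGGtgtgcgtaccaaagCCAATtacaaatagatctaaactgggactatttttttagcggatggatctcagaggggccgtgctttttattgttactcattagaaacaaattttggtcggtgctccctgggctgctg
The first stretch held 1 CCAAT box and 1 GC box. COL4A6 held 3 CCAAT boxes between -145 and -114 and COL4A5 held 2 between -247 and -235; the 2 of COL4A5 are in the bases that both sequences cover. Neither COL4A1 and COL4A2 nor COL4A3 and COL4A4 had a called line difference, while of the third pair COL4A6 was called higher in both treatments and COL4A5 lower with lenalidomide. Whether the shared sequence bears on this was not tested.

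COL18A1, a multiplexin of basement membranes whose end fragment is endostatin, stood at 160, 187 and 189 CPM in control cells in DMSO and 181 and 195 CPM in control cells with lenalidomide, against 198, 190 and 215 CPM in SPARK-ON cells in DMSO and 222, 209 and 215 CPM with lenalidomide. In DMSO and with lenalidomide the SPARK-ON libraries were above the control libraries, but the differences did not pass the test, 0.17 (SE 0.08, adjusted p = 0.0909) in DMSO and 0.20 (SE 0.09, adjusted p = 0.0851) with lenalidomide. SLC19A1 and antisense models overlap COL18A1 on the opposite strand. COL4A3 and COL4A4, chains of the kidney filter, passed the filter at group means of 0.932 to 1.59 CPM and 1.66 to 2.11 CPM and were not called between lines.

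The anchoring fibril collagen COL7A1, which ties epidermis to dermis, stood at 16.2, 18.8 and 16.8 CPM in control cells in DMSO and 17.6 and 17.9 CPM in control cells with lenalidomide, against 27.9, 34.7 and 27.8 CPM in SPARK-ON cells in DMSO and 39.2, 44.7 and 37.3 CPM with lenalidomide. It was higher in every SPARK-ON library, at a log2 difference of 0.80 (SE 0.11, adjusted p = 1.26e-05) in DMSO and 1.19 (SE 0.13, adjusted p = 6.83e-07) with lenalidomide. Type VIII holds short-chain network collagens, found in vessels and the cornea. COL8A1 stood at 5.53, 8.44 and 7.59 CPM in control cells in DMSO and 8.15 and 8.88 CPM in control cells with lenalidomide, against 3.78, 4.28 and 4.24 CPM in SPARK-ON cells in DMSO and 3.21, 4.95 and 5.88 CPM with lenalidomide and was lower in SPARK-ON cells, at a log2 difference of -0.81 (SE 0.21, adjusted p = 0.00439) in DMSO and -0.92 (SE 0.23, adjusted p = 0.00426) with lenalidomide; SPARK-ON and control libraries did not overlap within a treatment. COL8A2 was near the floor, at 0.434, 0.119 and 0.191 CPM in control cells in DMSO and 0.126 and 0.0532 CPM in control cells with lenalidomide, against 0.539, 0.725 and 1.53 CPM in SPARK-ON cells in DMSO and 1.21, 0.611 and 0.881 CPM with lenalidomide. Its summed counts were 50 against 14 in DMSO (ratio of CPM 3.90, exact 95% interval 2.12 to 7.65) and 36 against 3 with lenalidomide (10.5, 3.31 to 53.2). It passed the filter only through SPARK-ON libraries, so its call carries no weight as to direction. The test gave 1.89 (SE 0.62, adjusted p = 0.0198) in DMSO and 3.27 (SE 0.88, adjusted p = 0.00659) with lenalidomide, and the DMSO call was lost with line weights in voom and without SPARK-ON DMSO replicate 3 or control DMSO replicate 2 or 3. The call with lenalidomide was lost with line weights and without control lenalidomide replicate 2. Of the transmembrane collagens, COL17A1, a component of hemidesmosomes, stood at 5.8, 8.91 and 8.02 CPM in control cells in DMSO and 7.77 and 6.33 CPM in control cells with lenalidomide, against 1.5, 2.24 and 2.2 CPM in SPARK-ON cells in DMSO and 2.54, 2.44 and 2.35 CPM with lenalidomide. The lines did not overlap and it was lower in SPARK-ON cells, at a log2 difference of -1.93 (SE 0.22, adjusted p = 1.27e-06) in DMSO and -1.51 (SE 0.25, adjusted p = 8.31e-05) with lenalidomide. COL13A1, found at the neuromuscular junction, had group means of 1.12 to 1.41 CPM and was not called.

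The remaining 13 members did not pass the filter. COL3A1 and COL22A1 had no read in any library, which at the depth of these libraries allows up to 0.143 to 0.441 CPM each. COL5A3, COL6A5, COL6A6, COL9A1, COL10A1, COL15A1, COL20A1, COL23A1, COL25A1, COL26A1 and COL28A1 had at most 14 counts in a library, that of COL25A1, and at most 0.832 CPM. COL25A1 had a read in all 11 libraries and COL6A5 in 1.

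Several collagens are built from chains of different genes, and the ratio of such chains within a library does not depend on how libraries are scaled. The ratio of COL1A2 to COL1A1 counts was 1.31 to 1.93 in the 6 SPARK-ON libraries and 15.5 to 33.5 in the 5 control libraries. It was thus 14.5-fold higher in control cells, with no overlap. COL6A3 to COL6A1 was 0.101 to 0.133 in SPARK-ON and 0.0376 to 0.0562 in control libraries, a 2.73-fold higher value in SPARK-ON cells. COL4A6 to COL4A5 was 0.213 to 0.307 and 0.0634 to 0.126, which is 2.69-fold higher in SPARK-ON cells. The other ratios differed less. COL5A2 to COL5A1 was 0.253 to 0.313 in SPARK-ON and 0.363 to 0.442 in control libraries, and COL6A2 to COL6A1 was 0.459 to 0.554 and 0.619 to 0.701. COL4A2 to COL4A1 overlapped, at 2.74 to 3.75 and 3.15 to 3.65. For the first 5 ratios a two-sided exact permutation test of library labels within treatments gave p = 0.005, the smallest that 200 arrangements allow, or 0.006 adjusted over 6 ratios, and for COL4A2 to COL4A1 p = 0.705. In DMSO alone, 3 against 3 libraries cannot go below 0.10. The ratios are of reads and do not give the make-up of the protein.

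**Figure D4:**
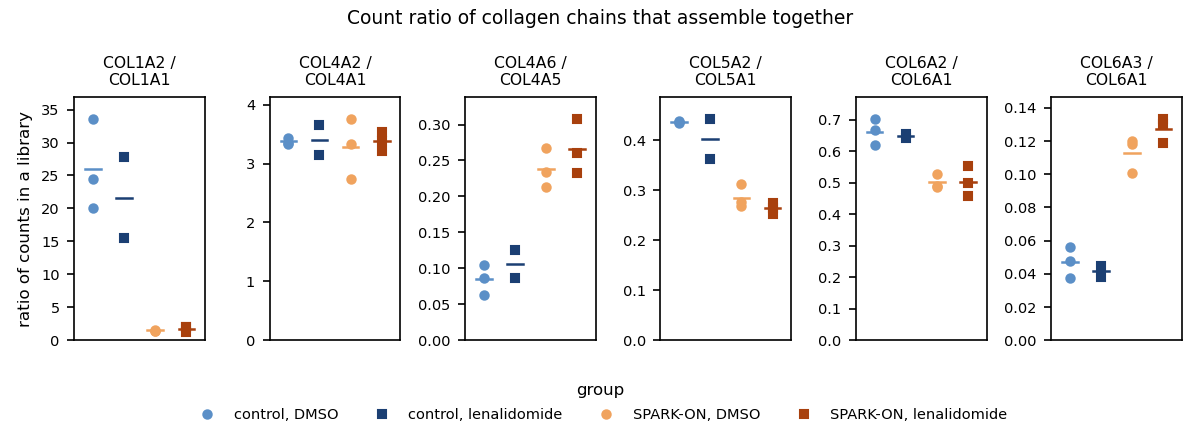
Ratio of the counts of 2 chains in each library for 6 pairs of collagen genes, each panel from 0; points are libraries, short lines are group means, blue is the control and orange and brown the SPARK-ON line. SPARK-ON and control libraries are apart in every panel except COL4A2 to COL4A1, where they overlap.

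In the SPARK-ON line no collagen gene passed the main test of lenalidomide against DMSO. In the fit of all 11 libraries, edgeR called 0 of 31 members at an adjusted p under 0.05, beside 0.0685% of all genes called higher and 0% lower. An unadjusted p under 0.05 was reached by 8 members, all with positive values, and by 860 of 16056 genes, and DESeq2 also called 0 members. The log2 change was positive for 26 of 31 members with a median of 0.14, beside 51.7% of all genes positive and a median of 0.01. Lenalidomide libraries lay above all DMSO libraries for 9 members (COL4A3, COL5A1, COL6A1, COL6A2, COL6A3, COL7A1, COL9A2, COL11A1 and COL17A1) of 31, beside 9.62% of all genes, and below them for 0 members, beside 8.17%. The smallest library, SPARK-ON lenalidomide replicate 3, is in this group.

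Among these, COL11A1 was 141, 137 and 141 CPM in DMSO and 173, 176 and 195 CPM with lenalidomide, a log2 change of 0.37 (SE 0.10, adjusted p = 0.354). COL7A1 was 27.9, 34.7 and 27.8 and 39.2, 44.7 and 37.3 CPM, 0.43 (SE 0.11, adjusted p = 0.273). COL5A1 was 273, 279 and 270 and 331, 311 and 332 CPM, 0.24 (SE 0.08, adjusted p = 0.734). In these 3 genes every lenalidomide library was above every DMSO library. The type VI genes COL6A1, COL6A2 and COL6A3 showed the same order of libraries, with log2 changes of 0.18 (SE 0.07), 0.18 (SE 0.08) and 0.36 (SE 0.13) that did not pass the test.

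When only the 6 SPARK-ON libraries were fitted, edgeR called 6 of 31 members higher and 0 lower, beside 1.79% of genes higher and 0.805% lower among 14652 tested. They were COL11A1 (log2 0.36, adjusted p = 6.38e-08), COL5A1 (0.24, 9.24e-05), COL7A1 (0.44, 4.65e-04), COL6A3 (0.36, 0.00627), COL6A1 (0.18, 0.00749) and COL6A2 (0.17, 0.0433). The log2 changes were nearly those of the fit of all libraries; the spread between replicates differed, with a biological coefficient of variation of 4.71% in this fit, 9.40% over all 11 libraries and 12.9% in the 5 control libraries. Leaving out 1 library at a time left 3 to 5 of these calls, with COL5A1 and COL11A1 among them each time and 3 without SPARK-ON lenalidomide replicate 1. In those fits 124 to 232 genes were called higher, of 15037 to 15144 tested, beside 263 of 14652 in the fit of all 6 libraries. A limma-voom fit with a separate variance weight for each line called COL5A1, COL7A1 and COL11A1, among 97 of 16056 genes called higher. The fit of all libraries without control DMSO replicate 1 called the same 3 members, among 64 of 15906 genes called higher. Without the expression filter, the fit of all 11 libraries called COL11A1, with the share of all genes given in the closing section. The collagen calls for this treatment thus differed between fits, and the cause was not tested.

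**Figure D5:**
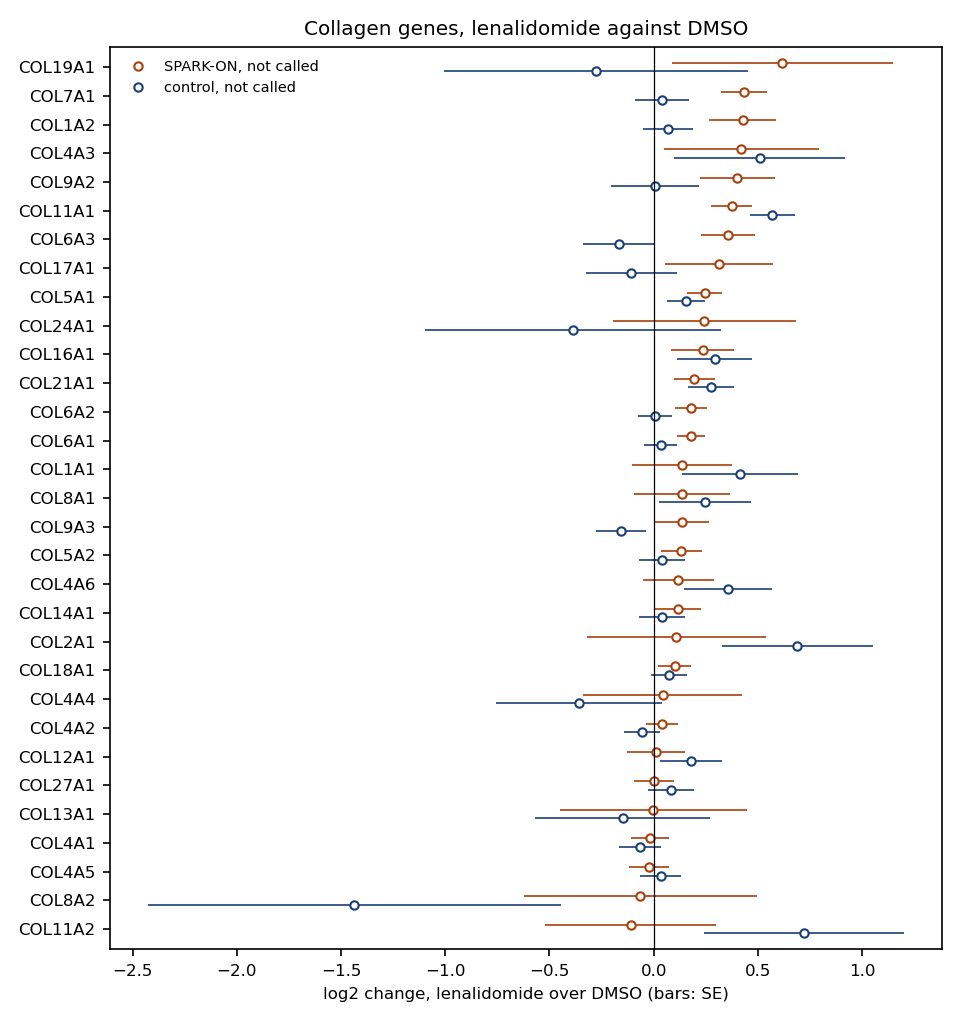
Log2 change of lenalidomide over DMSO for the 31 tested collagen genes in SPARK-ON (brown) and control (blue) cells; bars are the standard error, and open points did not reach an adjusted p of 0.05 by edgeR in the fit of all 11 libraries. Of the brown points 26 lie right of 0, and of the blue points 21.

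In control cells no collagen gene passed the test of lenalidomide against DMSO either, with 0 of 31 members called in edgeR, beside 0.0374% of genes called higher and 0.00623% lower. An unadjusted p under 0.05 was reached by 2 members and by 775 genes. The log2 change was positive for 21 of 31 members, with a median of 0.04, beside 49.3% of all genes positive. COL11A1 had the smallest p, at 213, 293 and 293 CPM in DMSO and 412 and 378 CPM with lenalidomide. Both lenalidomide libraries were above all DMSO libraries, and the log2 change was 0.57 (SE 0.11, adjusted p = 0.0833). It passed the test with DESeq2, with no expression filter, and without control DMSO replicate 1. Lenalidomide libraries were all higher for 5 members and all lower for 1, COL13A1, beside 7.67% and 6.87% of all genes. The fit of only the 5 control libraries called no gene, collagen or other.

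Whether the lines differed in their response was tested as an interaction, and edgeR called 0 of 31 members and 0% of 16056 genes. An unadjusted p under 0.05 was found for COL6A3, with a log2 difference between responses of 0.52 (95% interval 0.07 to 0.98), for COL7A1, 0.39 (0.04 to 0.75), and for 669 genes in all. After adjustment in edgeR both genes had an adjusted p = 1. For COL11A1, higher in lenalidomide libraries of both lines, the difference was -0.20 (-0.51 to 0.12). DESeq2 called 0 members too.

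Genes that act on collagen also differed between lines. Of 23 genes for modification and folding of collagen in the cell, all tested, 5 were higher and 8 lower in SPARK-ON cells in DMSO, beside 21.1% and 20.5% of all genes. PLOD1, which hydroxylates lysine, stood at 957, 916 and 984 CPM in control cells in DMSO and 1023 and 1064 CPM in control cells with lenalidomide, against 373, 376 and 376 CPM in SPARK-ON cells in DMSO and 380, 361 and 375 CPM with lenalidomide, lower at log2 -1.34 (SE 0.06, adjusted p = 3.68e-12). P3H2, a prolyl hydroxylase active on type IV collagen, was higher (18.5, 22.9 and 21.7 CPM in control cells in DMSO and 21 and 22.4 CPM in control cells with lenalidomide, against 83.3, 93.1 and 90.9 CPM in SPARK-ON cells in DMSO and 103, 101 and 102 CPM with lenalidomide), at a log2 difference of 2.08 (SE 0.09, adjusted p = 2.44e-12). COLGALT2, which adds galactose to hydroxylysine, was lower, -3.25 (SE 0.19, adjusted p = 1.75e-10), and so was P4HA1, a catalytic subunit of the main prolyl hydroxylase, -0.88 (SE 0.07, adjusted p = 6.20e-09). With lenalidomide in both lines, 3 of the 23 were higher and 11 lower, beside 19.7% of all genes each way. P4HA3, not called in either treatment, passed the filter only through SPARK-ON libraries.

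For cleavage of procollagen and crosslinking of fibrils, 11 of 13 listed genes were tested. TLL2 passed the filter only through SPARK-ON libraries, and of the other 10, 4 were higher and 2 lower in SPARK-ON cells in DMSO, beside 21.1% and 20.5% of all genes. LOX, which crosslinks fibrils by oxidising lysine, was lower at 27.6, 32.7 and 26.5 CPM in control cells in DMSO and 26.9 and 22.2 CPM in control cells with lenalidomide, against 5.81, 4.28 and 4.95 CPM in SPARK-ON cells in DMSO and 5.26, 5.44 and 5.73 CPM with lenalidomide, at a log2 difference of -2.52 (SE 0.14, adjusted p = 7.28e-11). LOXL2, a relative that also crosslinks type IV collagen, was lower at log2 -0.54 (SE 0.08, adjusted p = 1.25e-05), and LOXL4 was higher at log2 1.19 (SE 0.17, adjusted p = 1.38e-05). ADAMTS3, which trims the amino end of procollagens, was higher at log2 1.83 (SE 0.29, adjusted p = 5.83e-05). With lenalidomide in both lines, 4 of the 10 were higher and 3 lower, beside 19.7% of all genes each way. Of 12 receptors and uptake proteins 9 were tested, ITGA11 only through SPARK-ON libraries. Of the other 8, 4 were higher and 3 lower in either treatment, beside 21.1% and 20.5% of all genes in DMSO and 19.7% each way with lenalidomide. CD44, a hyaluronan receptor that also binds collagen and is on the mesenchymal marker list too, was lower at log2 -1.25 (SE 0.06, adjusted p = 1.14e-11). The receptor kinase DDR1 was lower at log2 -0.54 (SE 0.09, adjusted p = 5.14e-05), and MRC2, which takes up collagen fragments, and ADGRG1, a receptor for type III collagen, were higher at log2 0.47 (SE 0.07, adjusted p = 2.44e-05) and 0.69 (SE 0.07, adjusted p = 3.20e-07).

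Among 8 small proteoglycans that bind collagen only BGN (biglycan) passed the filter, at 1.9, 1.54 and 2.48 CPM in control cells in DMSO and 1.52 and 2.5 CPM in control cells with lenalidomide, against 32.4, 29.4 and 24.4 CPM in SPARK-ON cells in DMSO and 27.7, 28.5 and 30.1 CPM with lenalidomide. It was higher in SPARK-ON cells without overlap, at a log2 difference of 3.84 (SE 0.18, adjusted p = 5.74e-12) and 3.81 (SE 0.21, adjusted p = 1.16e-10) with lenalidomide. Of 8 proteases that cut collagen 7 were tested, but MMP1, MMP9 and MMP13 passed the filter only through SPARK-ON libraries, which fixed their direction. Of the other 4, 2 were higher (FAP and MMP2) and 1 lower (MMP14) in DMSO, beside 21.1% and 20.5% of all genes, and 2 and 0 with lenalidomide, beside 19.7% each way. FAP, a surface protease, stood at 0.488, 0.713 and 0.764 CPM in control cells in DMSO and 0.442 and 1.12 CPM in control cells with lenalidomide, against 11.4, 8.24 and 10 CPM in SPARK-ON cells in DMSO and 10.2, 9.53 and 9.55 CPM with lenalidomide, higher at log2 3.90 (SE 0.26, adjusted p = 8.29e-10). MMP2, a gelatinase, was higher at log2 0.83 (SE 0.08, adjusted p = 2.11e-07). The collagenase MMP1 had 11, 13 and 11 counts in SPARK-ON DMSO libraries and 0, 0 and 0 in control DMSO libraries, and the gelatinase MMP9 had 15, 10 and 22 and 2, 0 and 0. Lenalidomide against DMSO called no gene of any of these 5 lists in either line by edgeR. At an unadjusted p under 0.05 stood 8 genes over the lists in SPARK-ON and 6 in control cells. Among all 16056 genes tested, 860 and 775 did. The lists held 23, 11, 9, 1 and 7 tested genes.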

How the data were processed

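PolyA RNA of SH-EP cells was sequenced in 11 libraries of 4 groups. The values are raw counts per gene, whole numbers that the authors deposited without normalization. The submitters' processing notes name FastQC, fastp, HTSeq, edgeR and hg38; the aligner, the annotation release, the strand setting and all versions are not given in the sources used here. Of 14 columns, 11 were matched to labelled samples, and 3 with no matching label were not used, so comparisons with untreated SH-EP cells were not analysed here. Gene IDs were given symbols for 61369 of 61533 genes, and positions and exon lengths came from GENCODE 29 (GRCh38) for 58356. Besides the members named above for it, the tested members COL4A3, COL4A5, COL4A6, COL5A1, COL5A2, COL16A1 and COL24A1 also have gene models overlapping them on the opposite strand. So do COL3A1, COL5A3, COL9A1, COL10A1, COL15A1, COL23A1 and COL26A1, which did not pass the filter. Reads from such overlaps cannot be told apart without a strand setting.

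Genes passed edgeR's filterByExpr with a minimum count of 10. TMM factors, glmQLFit and glmQLFTest (edgeR 4.0.16, R 4.3.3) gave all contrasts from 1 fit of 4 groups with 7 residual degrees of freedom, two-sided, with Benjamini-Hochberg adjustment over all 16056 genes and a threshold of 0.05. CPM were computed with library sizes times TMM factors, and chain ratios from counts. Every library is printed for members with a group mean of at least 20 CPM or a call; of other pathway genes up to 4 a list were named, by smallest p. A gene was said to pass the filter through 1 line only where fewer than 2 libraries of the other line reached the filter's CPM cutoff. Genes named for that, and MMP14, GATA3 and KDR, were chosen after their values were seen. The members, the classes and the lists were chosen with earlier results of these data known. Alternatives were RLE scaling, library size alone, no filter, a fit of only the groups compared, a replicate block, limma-voom (limma 3.58.1) with and without a variance weight per line, DESeq2 1.42.0, and leaving out each library. The scripts were tested on simulated data. Depth, 6614671 to 21511684 counts, limits statements at low CPM, and intervals on counts cover counting error only. Promoter sequences came from RefSeq (GRCh38.p14), for 32 of 44 members.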

Additional observations from a re-analysis of the deposited data

How the results depend on the processing

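Between the lines, 16 of 20 calls in DMSO and 17 of 21 with lenalidomide held under every alternative run, and all kept their sign. The calls lost under some were COL8A2, COL9A2, COL11A2 and COL21A1 in DMSO and COL4A5, COL6A2, COL8A2 and COL19A1 with lenalidomide. Leaving out 1 library gave 8 to 12 higher and 9 to 12 lower members in DMSO, and 9 to 13 and 9 to 10 with lenalidomide. Scaling by library size alone moved the median of all genes from 0.01 to 0.10 in DMSO and from 0.02 to 0.12 with lenalidomide. It gave 14 and 13 higher members, adding COL1A1, COL6A2 and COL18A1 in DMSO, and the added calls cannot be told apart from that shift. For these leave-one-out and scaling fits the shares of all genes called are not given here. The counts thus show only how steady the member calls were. For lenalidomide in SPARK-ON cells, 0 higher members became 1 without the filter (beside 31 of 33507 genes), 3 with a voom weight per line (beside 97 of 16056 genes), 6 in the fit of only these 6 libraries (263 of 14652), and 0 to 3 on leaving out 1 library, with 3 without control DMSO replicate 1 (64 of 15906). In the fit of the 6 libraries, whose leave-one-out was added after seeing the data, they were 3 to 5, beside 124 to 232 of all genes. In control cells 0 became 1, COL11A1, without the filter (beside 22 of 33507 genes), with DESeq2 (20 of 16617) and without control DMSO replicate 1 (15 of 15906; range 0 to 1). For DESeq2 and voom the cause was not tested; the other fits held fewer libraries or more genes. Where leaving out a library left control lenalidomide with 1, that library is assumed to vary like the others. In DMSO alone the log2 line differences of the chain ratios were -4.11 for COL1A2 to COL1A1, 1.51 for COL4A6 to COL4A5, -0.61 for COL5A2 to COL5A1, -0.40 for COL6A2 to COL6A1 and 1.27 for COL6A3 to COL6A1, each with an exact permutation adjusted p = 0.12, since 3 against 3 libraries allow no p below 0.10.

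Replicate numbers are shared between groups. Deviations from group means correlated at -0.37 to 0.07 over 15 pairs of the same number, none over 0.1, and at -0.17 to 0.37 over 30 pairs of different numbers. The control lenalidomide libraries mirror each other by construction, at -0.369 and 0.369 against control DMSO replicate 1. These pairs are thus not independent, and the check cannot decide whether the numbers pair libraries. With the replicate block 11 members were higher and 9 lower in DMSO, 11 and 9 with lenalidomide (without COL4A5), and lenalidomide gave 0 in either line and 0 for the interaction. The shares of all genes called with the block are not given here either. Depth limits members under about 1 CPM, and no claim is made that uncalled genes are equal. Comparisons with untreated cells were not made.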
